A study of Mus musculus with 9 samples.

Results

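A set of 10 genes of sperm ion transport was followed in testes of Pfn3 mutant mice: Catsper1, Catsper2, Catsper3, Catsper4, Catsperb, Catsperd, Catsperg1, Catsperg2, Kcnu1 and Slc9c1. They were chosen by gene symbol, each had 1 row, and they are 10 of the 38674 genes of the table. RNA came from testes, freed of the tunica albuginea, of 3 wild-type (Pfn3+/+, WT), 3 heterozygous (Pfn3+/-, Het) and 3 homozygous mutant (Pfn3-/-, KO) C57BL/6 males. The mutant alleles are CRISPR/Cas9 deletions in Pfn3, the gene of the testis actin regulator profilin 3, carried in the germline and so in every cell. Males in all experiments were sexually mature, at 2 to 6 months of age. The sources used here give neither the deletion line of these 9 animals nor separate litters, so p-values measure the spread between these animals only. The study also scored the motility of sperm of these genotypes, a property that depends on the ion channels described here.

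CatSper is the calcium channel of the sperm tail. Its pore is built from the proteins of Catsper1, Catsper2, Catsper3 and Catsper4, and it carries large auxiliary subunits, among them those of Catsperb, Catsperd, Catsperg1 and Catsperg2. Calcium entry through CatSper drives the vigorous tail beat called hyperactivation, and the channel opens when the cell interior becomes alkaline and the membrane is depolarised. Kcnu1 encodes SLO3, the pH-sensitive potassium channel of sperm, and Slc9c1 encodes a sodium-proton exchanger of the sperm tail. The genes are transcribed in germ cells of the testis, while the proteins act in mature sperm.

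Libraries were made with QuantSeq, which reads each polyadenylated transcript near its 3′ end. Values are normalized counts, reads per gene divided by 1 size factor per animal, and 3375546 to 4287335 reads were counted on genes per animal. At 3 reads, taken as the limit of detection, the normalized count was 2.58 to 3.71, and all 10 genes were above it in all 9 animals. The lowest value of the 10 genes rested on 4 reads (Catsperb in WT replicate 1) and the highest on 1217 reads (Catsper2 in KO replicate 1). The tissue label was checked with markers: elongating spermatid genes (Tnp1, Tnp2, Prm1 and Prm2) summed to between 123388 and 249362 normalized counts per animal, and of the 4 epididymal genes Adam7, Lcn5 and Lcn8 were listed at 0 in all 9. The fourth, Crisp1, had 7.72 in WT replicate 2, 4.83 in WT replicate 3 and 1.72 in KO replicate 1 and was listed at 0 in the other 6. Pfn3 itself had 592, 383 and 373 normalized counts in WT, 136, 339 and 326 in Het and 74.7, 215 and 279 in KO. Its values in KO were all under those in WT, at a log2 fold change of −1.41 with a standard error of 0.52 (unadjusted p = 0.0336, limma adjusted p = 0.610). The KO and Het animals overlapped, since Het replicate 1 was below KO replicates 2 and 3. Whether the counted 3′ reads lie inside or outside the deleted bases was not tested, so Pfn3 checks the labels only in part.

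In all 3 comparisons, 0 of the 10 genes were called, that is, had an adjusted p under 0.05 and differed by more than 1.5 on the log2 scale, up or down. The tests were limma fits to log2 of the normalized count + 1, adjusted by Benjamini-Hochberg over all genes tested, and the log2 fold changes (log2FC) and standard errors (SE) below come from them. All 10 genes passed the filter on low values. Between KO and WT, 0.0352% of all genes tested were called, between Het and WT 0.0%, and between KO and Het 0.0558%. On recovered reads, edgeR's quasi-likelihood test and DESeq2's Wald test also called 0 of the 10 in each comparison. The number with an unadjusted limma p under 0.05 was 1 in KO against WT (8.07% of all genes), 0 in Het against WT (3.34%) and 0 in KO against Het (3.56%). The 3 comparisons share animals, so their values are given side by side and are not independent.

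Catsper1, Catsper3 and Catsper4, which encode pore subunits, had lower normalized counts in KO, the KO animals being all below the WT animals on this scale. Of all genes, 10.5% had this lower arrangement in KO against WT and 19.9% had no overlap in either direction. Catsper1 (ENSMUSG00000038498, GRCm38 chr19:5335741-5344280, plus strand) had 157, 181 and 255 normalized counts in WT, 72.8, 257 and 163 in Het and 135, 67.7 and 121 in KO. The KO animals were the lower group, while the Het animals overlapped both groups. Its log2FC in KO against WT was −0.90 (SE 0.34, unadjusted p = 0.037, limma adjusted p = 0.610), a level 0.536 times that of WT with a 95% interval of 0.302 to 0.95. Against WT, the Het animals had a log2FC of −0.41 (SE 0.49, limma adjusted p = 0.810).

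Catsper3 (ENSMUSG00000021499, chr13:55784568-55808998, plus strand) had 378, 297 and 250.1 normalized counts in WT, 163, 241 and 228 in Het and 222, 123 and 224 in KO. All Het and KO animals lay below all WT animals, and Het and KO overlapped. Against WT its log2FC was −0.73 in KO (SE 0.31, unadjusted p = 0.0572, limma adjusted p = 0.610) and −0.55 in Het (SE 0.26, unadjusted p = 0.0757, limma adjusted p = 0.779). It was the one gene of the 10 whose Het and WT animals did not overlap, against 6.49% of all genes with Het animals all below WT. Catsper3 is also the one of the 10 on the chromosome of Pfn3, with 369 kb between the genes.

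Catsper4 (ENSMUSG00000048003, chr4:134211970-134227383, minus strand) had 448, 269 and 277 normalized counts in WT, 212, 298 and 310.1 in Het and 263, 188 and 265 in KO. WT replicate 1 stood above the other WT animals, which were close to the highest KO animal. The log2FC in KO against WT was −0.45 (SE 0.28, unadjusted p = 0.158, limma adjusted p = 0.639), and the 95% interval of the level, 0.456 to 1.17 times WT, included no difference. Leaving out each animal in turn, the log2FC stayed below 0 for these 3 genes, from −1.09 to −0.60 for Catsper1, −0.87 to −0.44 for Catsper3 and −0.58 to −0.21 for Catsper4. KO replicate 2 was the lowest KO animal for all 3, as for 40.7% of the genes with 10 or more normalized counts in 3 or more animals. Without KO replicate 2 the log2FC was −0.60 for Catsper1, −0.44 for Catsper3 and −0.29 for Catsper4. Without WT replicate 1 it was −0.21 for Catsper4.

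Catsper2 (ENSMUSG00000033486, chr2:121392631-121413792, minus strand), the remaining pore subunit, went the other way in its means. It had 140, 572 and 795 normalized counts in WT, 865, 707 and 882 in Het and 1045, 489.5 and 636 in KO. WT replicate 1 was the lowest of the 9 animals by a factor of more than 3, and without it KO and WT were nearly level (log2FC 0.03, against 0.78 with it, SE 0.68, limma adjusted p = 0.670). The log2FC in Het against WT was 1.02 (SE 0.64, limma adjusted p = 0.779). In the annotation, Catsper2 overlaps Gm14000, Gm14001 and Pdia3, the last of these at the 5′ ends and on the opposite strand. The sources used here do not state whether reads were counted by strand, and an effect of these overlaps on the 3′ counts was not tested.

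**Figure D1:**
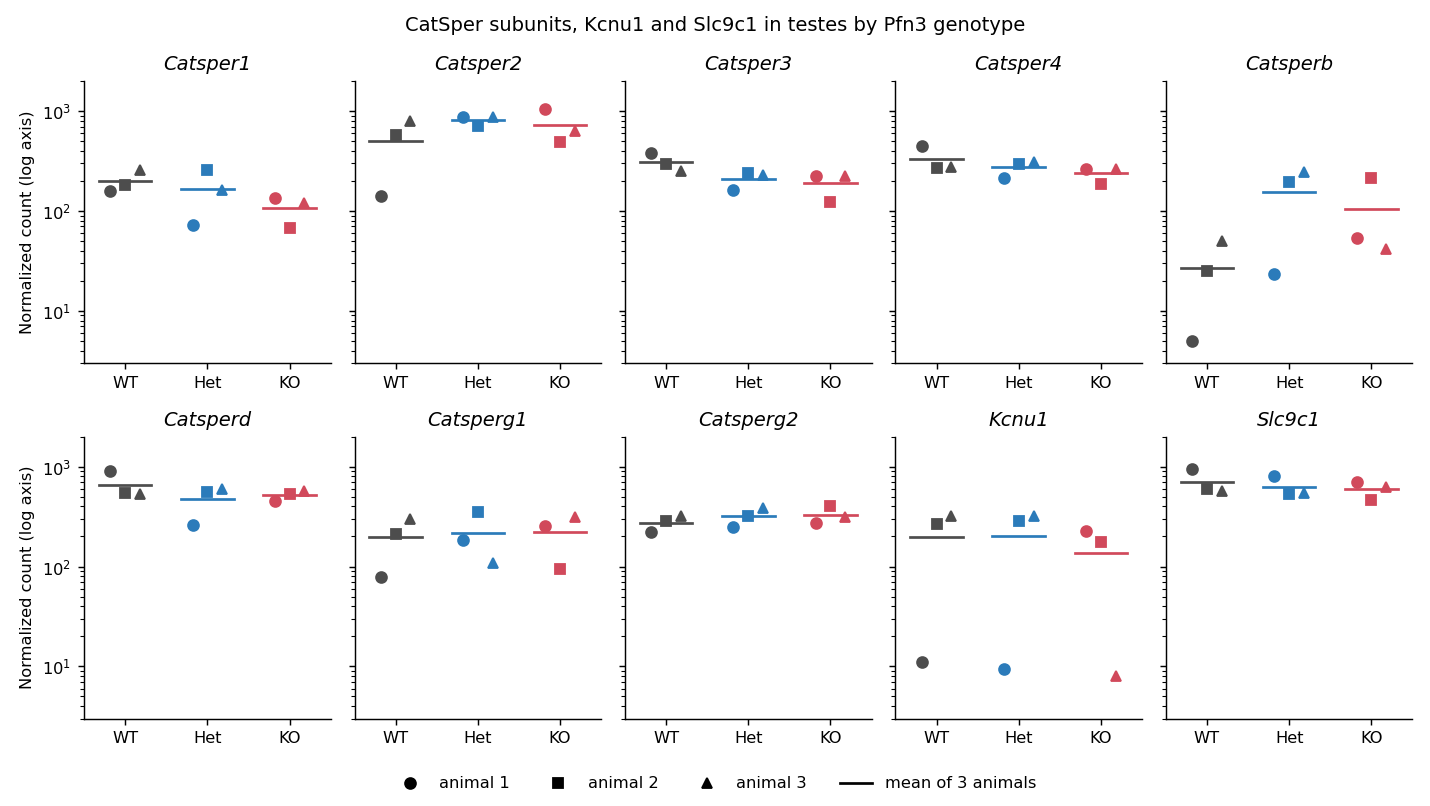
Normalized counts (log axis) of the 10 genes in each animal, by genotype, with 1 panel per gene, 1 point per animal and a line at the mean of 3 animals. The KO points of Catsper1, Catsper3 and Catsper4 lie below the WT points, and Kcnu1 has 1 animal at 8.04 to 11.1 in each genotype with the others at 175 to 319.

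Markers of elongating spermatids moved in the same direction as Catsper1, Catsper3 and Catsper4. Their mean log2 level was 15.71 ± 0.05 for WT, 15.35 ± 0.20 for Het and 15.08 ± 0.38 for KO animals (SD over 3). All 4 were lower in KO, and 3 of the 4 had every KO animal below every WT animal, as had 10.5% of all genes. None of the 4 was called (smallest limma adjusted p = 0.529). Their summed level was 233289 to 249362 in WT and 123388 to 199672 in KO. The lowest sum was that of KO replicate 2, the animal with the lowest KO values of the 3 CatSper genes, and the other KO animals had 192069 and 199672. KO replicate 2 was also the lowest KO animal for 40.7% of the 14865 genes with 10 or more normalized counts in 3 or more animals. The 4 round spermatid markers had sums of 5942 to 7763 in the WT and 2787 to 4816 in the KO animals, with 3 of 4 lower. The spermatocyte markers had sums of 4249 to 5775 in the WT and 5999 to 7344 in the KO animals, and all 4 tested were higher. No round spermatid or spermatocyte marker was called (smallest limma adjusted p = 0.610 and 0.583). The part of all these markers in the values of the CatSper genes was not tested. In whole testis, fewer cells of a type and less RNA per cell cannot be told apart.

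The auxiliary subunits showed no common direction, and the widest difference of group means belonged to Catsperb. Catsperb (ENSMUSG00000047014, chr12:101404653-101626009, plus strand) had 4.95, 25.1 and 50.2 normalized counts in WT, 23.6, 196 and 248 in Het and 54.1, 216 and 42.0 in KO. Het replicates 2 and 3 and KO replicate 2 were high, and the other 6 animals lay between 4.95 and 54.1. The log2FC was 2.0 in KO against WT (SE 0.96, unadjusted p = 0.0797, limma adjusted p = 0.615) and 2.42 in Het against WT (SE 1.15, unadjusted p = 0.079, limma adjusted p = 0.779). Both passed the size cutoff and neither the test, and KO against WT was 1.13 without WT replicate 1 and 1.29 without KO replicate 2. In KO against Het it was −0.41 (SE 1.04).

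Part of Catsperb also occurs elsewhere. Of 3667 stretches of 50 bases in its main transcript, 534 (14.6%) are found in transcripts of Gm18795, an annotated transcribed pseudogene 32 kb upstream (chr12:101216840-101373116, plus strand). In the last 500 bases, where 3′ reads are taken, 68 of 451 stretches are shared. Pseudogenes were removed from the table, so reads of Gm18795 were not analysed here and the count of Catsperb is uncertain by what they share.

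Catsperg1 and Catsperg2 are a pair of closely related genes for the gamma subunit, 483 kb apart on chromosome 7. Their coding sequences were identical at 96.8% of aligned bases, and 40.6% of the 50-base stretches of Catsperg1 and 41.0% of those of Catsperg2 occur in the other gene. In the last 500 bases of the main transcript, 142 of 451 stretches of Catsperg1 (31.5%) and 164 of 451 of Catsperg2 (36.4%) do. A coding stretch of 30 bases close to the end of each gives an example of bases that tell them apart (GRCm38, minus strand, written 5′ to 3′, with the 4 differing bases in capitals). It was picked because it holds differences, and it differs more than the coding sequences as a whole. The stretches lie at chr7:29181698-29181727 and chr7:29697656-29697685.
Catsperg1: ccagaCcAggtAcCaaagaggacaatgttc
Catsperg2: ccagaGcTggtTcGaaagaggacaatgttc
Counted from 1 at the 5′ end, with the base of Catsperg1 first, the substitutions are C6G, A8T, A12T and C14G. A read of 50 bases from a stretch without such a difference cannot be assigned to one gene, so the split between them is uncertain.

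Catsperg1 (ENSMUSG00000049676, chr7:29181321-29214035) had 78.0, 213 and 297 normalized counts in WT, 185, 354 and 108 in Het and 253, 93.8 and 316 in KO. Catsperg2 (ENSMUSG00000049123, chr7:29697219-29727032) had 219, 286 and 319 in WT, 248, 319 and 387 in Het and 272, 403 and 315 in KO. Catsperg1 varied more than 3-fold within each genotype and Catsperg2 by 1.45-fold to 1.56-fold. The log2FC in KO against WT was 0.20 for Catsperg1 (SE 0.65, limma adjusted p = 0.913) and 0.26 for Catsperg2 (SE 0.24, limma adjusted p = 0.685). Summed over the pair, there were 297, 499 and 616 normalized counts in WT, 433, 673 and 495 in Het and 526, 497 and 631 in KO. Catsperg1 made up 18.9% (KO replicate 2) to 52.6% (Het replicate 2) of this sum, with 26.3% to 48.3% over the WT animals alone.

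Catsperd (ENSMUSG00000040828, chr17:56628143-56664456, plus strand) had 906, 545 and 530.1 normalized counts in WT, 262, 562 and 597 in Het and 456, 530.1 and 568 in KO. WT replicate 1 was the highest and Het replicate 1 the lowest of the 9, and the other 7 lay between 456 and 597. The log2FC was −0.31 in KO against WT (SE 0.26, limma adjusted p = 0.666), −0.52 in Het against WT (SE 0.40, limma adjusted p = 0.779) and 0.21 in KO against Het (SE 0.34, limma adjusted p = 0.973).

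Kcnu1 (ENSMUSG00000031576, chr8:25849623-25937939, plus strand) split the animals of each genotype instead of the genotypes. It had 11.1, 267 and 319 normalized counts in WT, 9.45, 286 and 317 in Het and 228, 175 and 8.04 in KO. WT replicate 1, Het replicate 1 and KO replicate 3 were low and the other 6 animals high, with a ratio of highest to lowest of 28.6 in WT, 33.6 in Het and 28.4 in KO. The low values were 9, 10 and 9 reads, and the exact 95% Poisson intervals of 9 reads (4.12 to 17.1) and of the smallest high count, 181 reads (156 to 209), did not overlap. These intervals cover counting error only.

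With this spread, the log2FC of Kcnu1 in KO against WT was −0.50 and its SE 1.72 (limma adjusted p = 0.919), and the 95% interval of the level ran from 0.039 to 12.8 times WT. It was −2.03 without WT replicate 1 and 0.99 without KO replicate 3. For Het against WT it was −0.04 (SE 1.81, limma adjusted p = 0.996). No 50-base stretch of the Kcnu1 transcript occurred in another annotated gene. The cause of the low values was not tested.

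Slc9c1 (ENSMUSG00000033210, chr16:45535309-45607001, plus strand) had 943, 600.0 and 568 normalized counts in WT, 812, 535 and 539.7 in Het and 698, 468 and 632 in KO. The genotypes overlapped, and replicate 1 was the highest in each, although the sources used here do not link animals by replicate number. The log2FC was −0.21 in KO against WT (SE 0.27, limma adjusted p = 0.759), −0.15 in Het against WT (SE 0.29, limma adjusted p = 0.874) and −0.06 in KO against Het (SE 0.24, limma adjusted p = 0.996). For this gene the 95% interval in KO against WT was 0.545 to 1.37 times WT. Such intervals reached past the size cutoff for Catsper1, Catsper2, Catsperb, Catsperg1 and Kcnu1 and stayed within it for the other 5 genes.

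**Figure D2:**
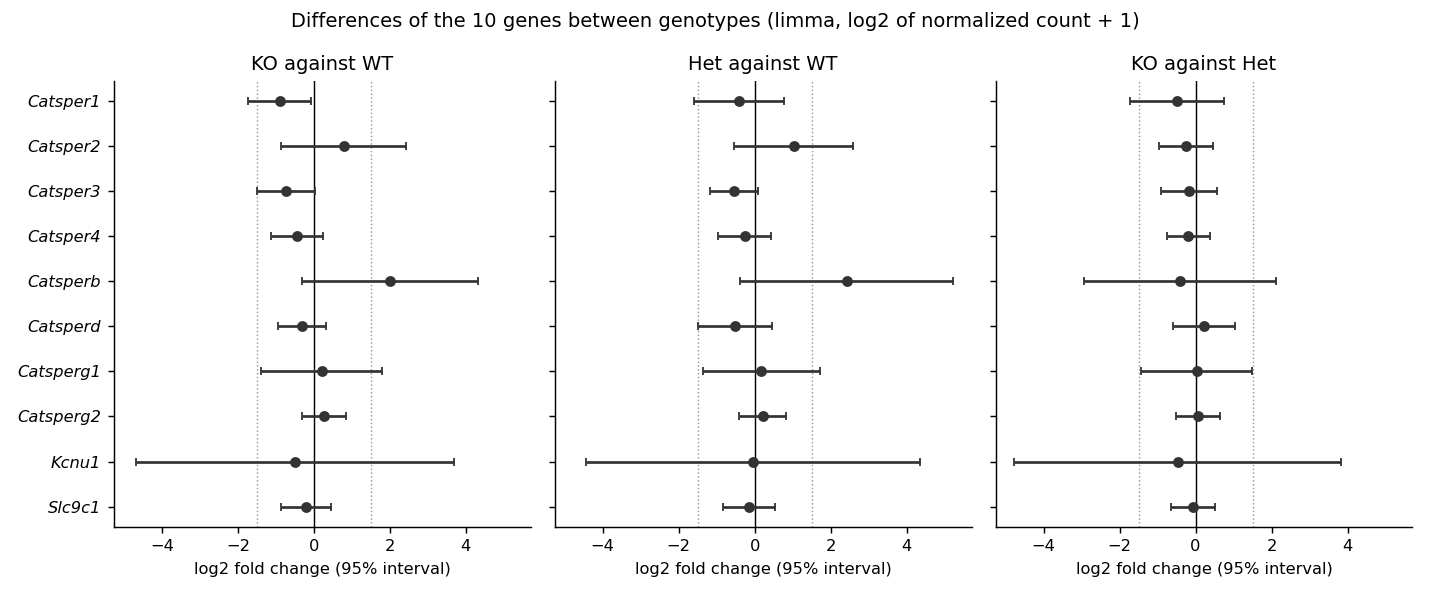
Log2FC (point) with its 95% interval (bar) of each of the 10 genes in the 3 comparisons, from limma, with dotted lines at the cutoff of 1.5 in either direction. The only interval that does not include 0 is that of Catsper1 in KO against WT, and Kcnu1 has the widest interval in each panel.

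Over the 10 genes, 4 were higher and 6 lower in KO than in WT, with a median log2FC of −0.26 against 0.02 over all genes tested. In Het against WT, 4 were higher and 6 lower, with a median of −0.10 against 0.01. In KO against Het, 3 were higher and 7 lower, with a median of −0.19 against 0.00, and for 0 of the 10 were the KO animals all below (4.9% of all genes) or all above (5.12%) the Het animals. With scaling by library totals (reads counted on genes) instead of size factors, the median over all genes in KO against WT was 0.22 and the share of genes higher in KO went from 51.4% to 65.4%, while the median of the 10 was −0.06. For Het against WT this scaling moved the median over all genes to 0.16 and that of the 10 to 0.06, with 62.6% of all genes higher in place of 50.5%.

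The 10 genes differed widely in how far animals of 1 genotype lay apart. The residual standard deviation within genotypes, on the log2 scale, was 2.68 for Kcnu1, above 98.7% of the 14865 genes that had 10 or more normalized counts in 3 or more of the 9 animals. Catsperb followed with 1.58 (above 88.7%), Catsperg1 with 0.93, Catsper2 with 0.84 and Catsper1 with 0.64. The other 5 were between 0.30 (Catsperg2) and 0.47 (Catsperd), around the median over all genes of 0.45. Kcnu1 exceeded a 10-fold range in all 3 genotypes, as did 87 of the 4933 genes at mean levels between those of the lowest and highest of the 10 (1.76%). Over all levels 174 genes did so, and 32 of these (18.4%) were lowest in the same 3 animals as Kcnu1. Taken one animal at a time, WT replicate 1 was the lowest WT animal for 124 of the 174, Het replicate 1 the lowest Het animal for 92 and KO replicate 3 the lowest KO animal for 65. Over all 14865 genes these animals were the lowest of their genotype for 43.0%, 38.6% and 26.1%.

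**Figure D3:**
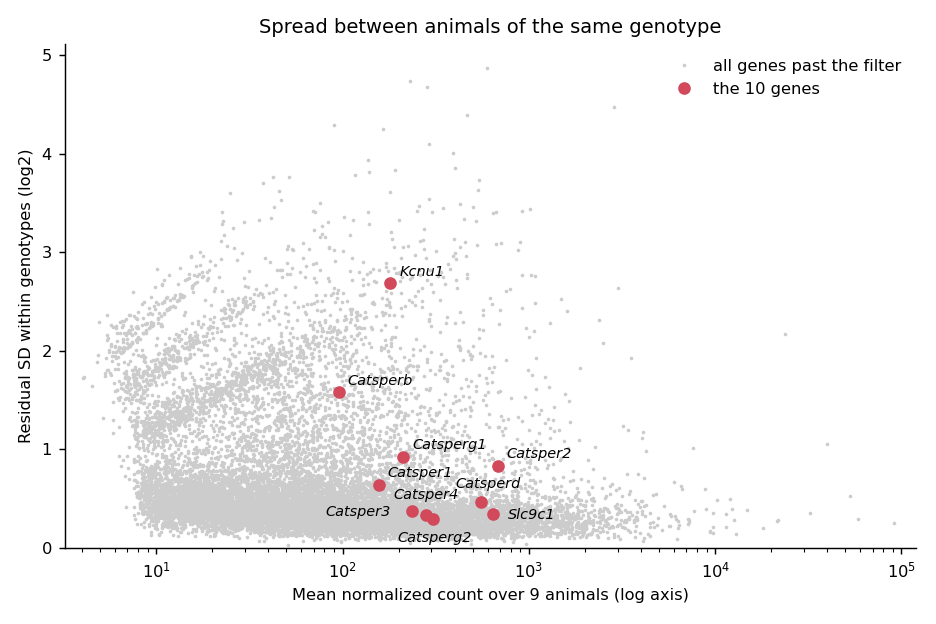
Residual standard deviation within genotypes (log2 scale) against the mean normalized count over 9 animals (log axis), with 1 grey point per gene and the 10 genes in red. Kcnu1 at 2.68 and Catsperb at 1.58 stand above the band that holds most genes, and Catsperg2 at 0.30 is the lowest of the 10.

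Some animals were more often than others the lowest or the highest of their genotype over the 14865 genes, and the 10 genes are given beside that background. Among 3 animals, every gene without ties has a lowest and a highest, so large edge shares arise from the ranking itself. WT replicate 1 was at such an edge for all 10 (83.8% of all genes), Het replicate 1 for 8 (76.9%) and KO replicate 2 for 8 (78.8%). WT replicate 3 was at an edge for 9 of the 10 (57.4%), WT replicate 2 for 1 (57.8%), and the other 4 animals for 5 to 7 (55.4% to 66.3%). For KO against WT, 5 genes were called over the whole table, 49 when WT replicate 1 was left out, 11 when KO replicate 1 was, 1 when KO replicate 3 was and 0 when any one of the other animals was, where 613 to 1002 genes had an unadjusted limma p under 0.05. The 10 genes held 0 calls in each of these fits.

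Levels of different genes were set side by side on 2 scales, normalized counts per gene and per kilobase of annotated exon. Reads taken near the 3′ end do not grow in number with transcript length, so the division by length can itself shift the order, and 7 of the 10 genes changed place between the scales. On both, Catsper2 had the highest and Catsperb the lowest mean over the 9 animals, at 681 and 95.5 per gene and at 184 and 17.3 per kilobase. Per gene, Slc9c1 followed at 644, Catsperd at 551, Catsperg2 at 308, Catsper4 at 281, Catsper3 at 236, Catsperg1 at 211, Kcnu1 at 180.2 and Catsper1 at 157. Per kilobase, Catsper3 was at 174, Slc9c1 at 159, Catsperd at 153, Catsper4 at 134, Catsper1 at 71.6, Kcnu1 at 48.2, Catsperg2 at 43.7 and Catsperg1 at 29.96.

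Neighbours in each order were compared as paired log2 differences over the 9 animals (mean ± SD). Per gene, the steps from Catsperd to Catsperg2 (0.80 ± 0.54, in that order in 9 of 9 animals) and from Catsper4 to Catsper3 (0.28 ± 0.21, in 8 of 9) were larger than their SD, and the other 7 steps were not. Per kilobase, the step from Catsper4 to Catsper1 was (1.0 ± 0.54, in 9 of 9), and the other 8 were not.

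**Figure D4:**
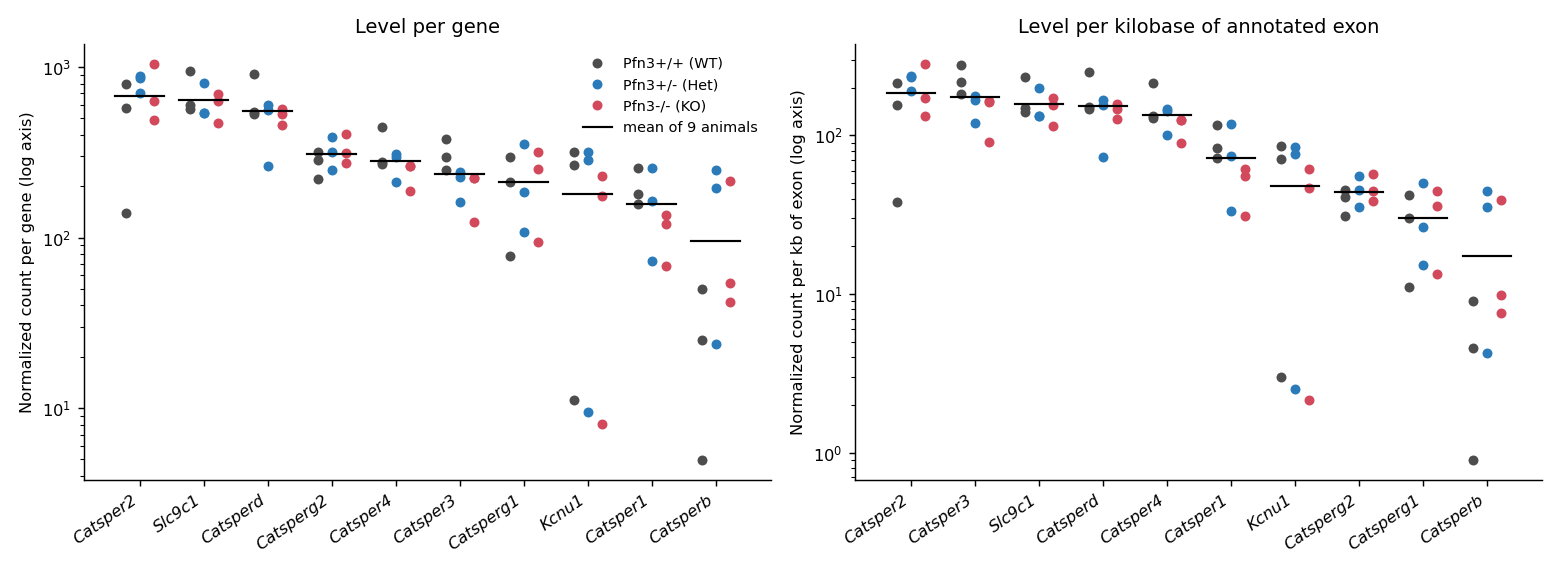
Normalized count per gene (left) and per kilobase of annotated exon (right), both on log axes, for each of the 10 genes in order of the mean, with 1 point per animal coloured by genotype and a black line at the mean of 9 animals. Catsper2 is first and Catsperb last in both panels, the genes between them are ordered differently, and most neighbours overlap.

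The other listed genes of the pathway numbered 46, of which 44 had a row and 38 were tested in KO against WT. Of these, 0 were called in any comparison. In KO against WT, 13 were higher and 25 lower, with a median log2FC of −0.28. Over all genes tested, 51.4% were higher and the median was 0.02. An unadjusted limma p under 0.05 was reached by 5 (8.07% of all genes), 1 higher and 4 lower. The KO animals lay all below the WT animals for 7 (10.5% of all genes) and all above them for 2 (9.41%). In Het against WT, 15 of 39 were higher and 24 lower (median −0.20), and in KO against Het 11 of 38 were higher and 27 lower (median −0.18). Over all genes the medians were 0.01 and −0.003, with 50.5% and 49.7% higher. The Het animals were all below the WT animals for 3 (6.49% of all genes) and all above for 2 (6.76%). The KO animals were all below the Het animals for 6 (4.9%) and all above for 0 (5.12%).

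Among the other CatSper subunits, 4 of 7 tested were higher in KO and 3 lower (median log2FC 0.24), and Catspere1 and Tmem249 were not analysed here. Catspere2, a gene for the epsilon subunit listed under its older name Gm16432, had 34.7, 57.9 and 75.3 normalized counts in WT, 128, 95.9 and 83.6 in Het and 93.6, 107 and 122 in KO. All Het and KO animals lay above all WT animals, as in 6.76% of all genes for Het and 9.41% for KO. Its log2FC was 0.99 in KO against WT (SE 0.33, unadjusted p = 0.0222, limma adjusted p = 0.610) and 0.91 in Het against WT (SE 0.35, unadjusted p = 0.0405, limma adjusted p = 0.779). Catsperz, a subunit that organises the channel along the tail, averaged 3384 ± 925 normalized counts in the WT and 2396 ± 349.9 in the KO animals (SD, n = 3), a log2FC of −0.47 (SE 0.24, limma adjusted p = 0.616). Tmem262 had 358 ± 174 and 199.8 ± 65.7, a log2FC of −0.80 (SE 0.42, limma adjusted p = 0.618).

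All 5 tested partners of potassium and proton transport were lower in KO than in WT, with a median log2FC of −0.32 and adjusted p-values by limma of at least 0.641. Lrrc52, the auxiliary subunit of SLO3, had 123, 96.5 and 107 normalized counts in WT, 56.7, 113 and 125 in Het and 79.9, 78.4 and 102 in KO. The 3 animals with low Kcnu1 had 123, 56.7 and 102, so Lrrc52 did not share the split of Kcnu1. Slc9b1, a sodium-proton exchanger of the sperm tail, had 764 ± 99.1 in WT, 550.3 ± 49.9 in Het and 626 ± 59.8 in KO, with all Het and KO animals below all WT animals (log2FC in KO against WT −0.28, SE 0.18, limma adjusted p = 0.641). Of all genes, 6.49% had the Het animals and 10.5% the KO animals all below WT.

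Of the pumps, anion transporters, water channels and other calcium channels, 6 of 14 tested were higher and 8 lower in KO (median log2FC −0.21). Atp1a4, the sodium pump subunit particular to male germ cells, had 3626, 2737 and 2918 normalized counts in WT, 1987, 2848 and 2854 in Het and 2030, 1562 and 2359 in KO. The KO animals were all below the WT animals, as in 10.5% of all genes, at a log2FC of −0.65 (SE 0.21, unadjusted p = 0.0211, limma adjusted p = 0.610). Atp1b3, a beta subunit of the same pump, had 2149 ± 227 in WT and 1492 ± 311 in KO without overlap, a log2FC of −0.54 (SE 0.21, unadjusted p = 0.0403, limma adjusted p = 0.610). Atp1b1, another beta subunit, had 105 ± 56.4 in WT and 231 ± 104 in KO, a log2FC of 1.18 (SE 0.55, limma adjusted p = 0.613).

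Of 12 genes of protein kinase A and calcineurin in the flagellum, 3 were higher and 9 lower in KO (median log2FC −0.37). Cabyr, a calcium-binding protein of the fibrous sheath of the tail, had 1008, 757 and 903 normalized counts in WT, 681, 839.9 and 691 in Het and 380.5, 389.9 and 496 in KO. The KO animals lay below all WT and all Het animals, and the log2FC was −1.07 in KO against WT (SE 0.20, unadjusted p = 0.00156, limma adjusted p = 0.402) and −0.81 in KO against Het (SE 0.17, unadjusted p = 0.00308, limma adjusted p = 0.973). Prkar2a, a regulatory subunit of protein kinase A, had 1170 ± 194 in WT and 632 ± 124 in KO without overlap, a log2FC of −0.89 (SE 0.23, unadjusted p = 0.007, limma adjusted p = 0.604). Camk4, a calmodulin-dependent kinase, had 235 ± 19.7 and 158 ± 57.7 without overlap, a log2FC of −0.64 (SE 0.33, limma adjusted p = 0.616). Of all genes, 10.5% had the KO animals all below WT, as these genes had, and 4.9% all below Het, as Cabyr had.

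**Figure D5:**
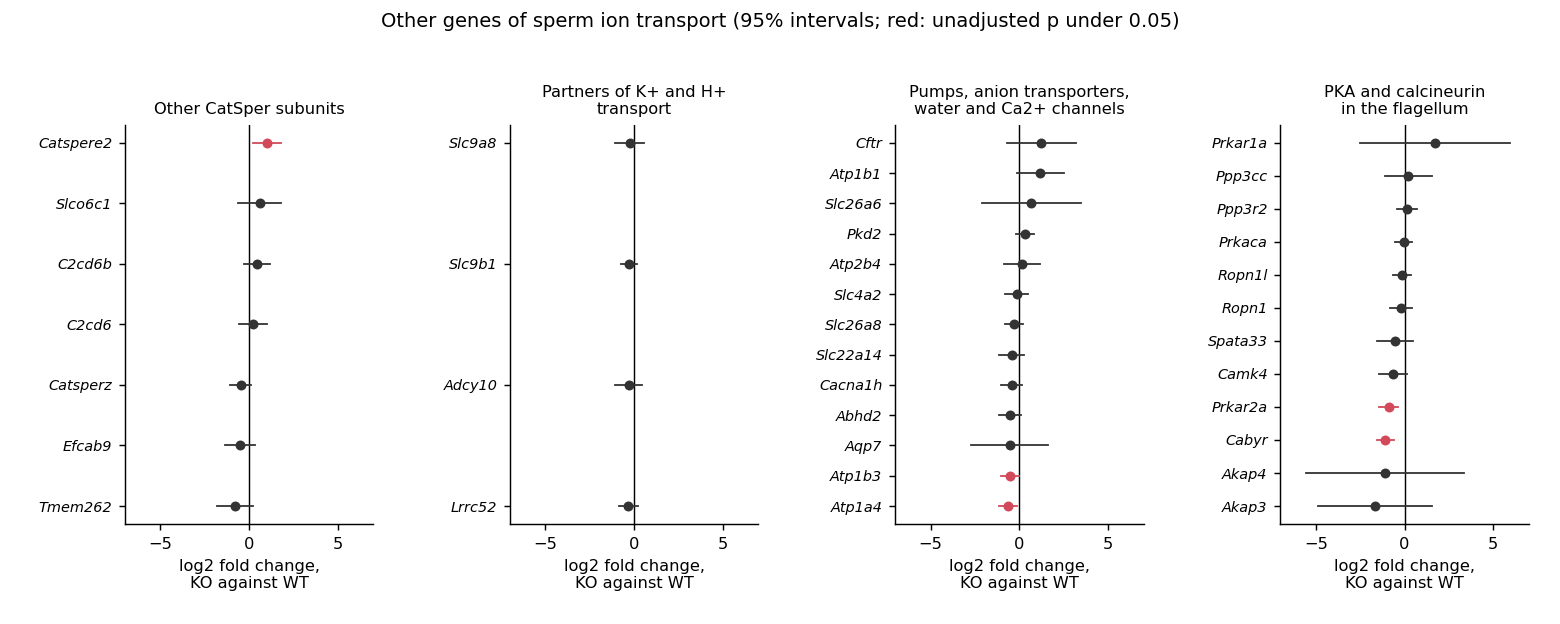
Log2 fold change in KO against WT (point) with its 95% interval (bar) for 36 tested genes of 4 lists, 1 panel per list, with red marking an unadjusted limma p under 0.05. Catspere2 is red above 0 and Atp1a4, Atp1b3, Prkar2a and Cabyr are red below 0.

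The genes with profiles most like the mean profile of the 10, after log2(normalized count + 1) of each gene was centred over the 9 animals, were Gmeb1, 4933421A08Rik and 4930413E15Rik. Their root mean square differences from it were 0.16, 0.18 and 0.20 on the log2 scale, the smallest of 14043 genes compared. The mean profile was lowest in WT replicate 1 (−0.70) and Het replicate 1 (−0.65) and highest in Het replicate 2 (0.57). Kcnu1 and Catsperb, the members with the widest spread, carry much of it. In an alternative chosen after seeing the data, the mean of the other 8 genes was −0.11 in WT replicate 1 and −0.28 in Het replicate 1, and its lowest animal was KO replicate 2 (−0.47, against −0.083 with all 10). KO replicate 3 went from −0.30 to 0.088. The 3 genes most like the profile of the 8 were Gatc, Kif2c and 1700001L05Rik, at root mean square differences of 0.090, 0.093 and 0.099, which are other genes than the 3 named for the 10.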

How the data were processed

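Total RNA of 9 testes was sequenced from its 3′ ends. Per the labels and the study's methods, the authors trimmed reads with Trim Galore 0.4.5, mapped them with HISAT2 2.1 on GRCm38, used StringTie 1.3.3 for assembly and counts, removed pseudogenes and used DESeq2. The deposited values are a signal, gene counts divided by 1 size factor per animal. Whole reads were recovered from them: 100% of nonzero values were whole multiples of 1 step (tolerance 0.0001). Gene symbols gave the 10 genes, and 0 columns were left unmapped.

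Pairs of genotypes were compared with limma 3.58.1 (eBayes with a trend, two-sided, R 4.3.3) on log2(value + 1), over genes with at least 10 in at least 3 of the 6 animals, with Benjamini-Hochberg adjustment and the study's cutoffs. This scale understates changes of low genes. The functions were tested on simulated data. Alternatives were edgeR 4.0.16 and DESeq2 1.42.0 on recovered reads, other scalings, pseudocounts, filters and sample sets, the replicate number as a block, and leaving out each animal. Loci and shared stretches came from GENCODE M21 on GRCm38. Python 3.11.15 with pandas 2.3.3, numpy 2.4.6 and matplotlib 3.10.9 served for tables and plots.

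The 10 genes, the lists and the markers were chosen with earlier results of these data known. All 10 genes were named. From the 4 pathway lists, genes past the cutoffs and up to 3 per list with the smallest unadjusted p in KO against WT were named, and likeness was ranked outside the lists. A gene this rule names is not reported here. The other lists held markers of 9 cell types. Raw reads and protein sequences were not used here.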

Additional observations from a re-analysis of the deposited data

How the results depend on the processing

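None of the 10 genes was called under any alternative in any comparison, and the smallest limma, edgeR or DESeq2 adjusted p was 0.535 in KO against WT, 0.687 in Het against WT and 0.821 in KO against Het. Over the whole table, DESeq2 called 100, 31 and 38 genes in these comparisons, against 5, 0 and 8 with limma (475 genes in Het against WT had an unadjusted limma p under 0.05), and edgeR called 5, 0 and 5. With all 9 animals in 1 fit, limma called 3, 3 and 4 genes. In Het against WT, TMM factors and a filter at 20 gave 1, a pseudocount of 5 gave 2 and no filter gave 3. Leaving out 1 animal gave 0 to 49 genes in KO against WT (49 without WT replicate 1), 0 to 3 in Het against WT (3 without Het replicate 2) and 0 to 39 in KO against Het (39 without Het replicate 2, and 0 or 1 without any other).

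The sources used here do not pair animals by replicate number. Deviations of same-numbered animals correlated at −0.14 to 0.19, and those of differently numbered animals at −0.24 to 0.19. These correlations cannot show whether animals shared a litter or a preparation. With the replicate block, 0 genes were called in each comparison, with 794, 322 and 403 at an unadjusted limma p under 0.05.

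With all animals kept, the direction of the 10 genes turned in 4 values, all in Het against WT: Kcnu1 at 0.047 with edgeR, 0.0497 with DESeq2 and 0.11 by reads counted per library, where Slc9c1 was at 0.0041. Leaving out 1 animal turned 6 values in KO against WT, 7 in Het against WT and 16 in KO against Het. The log2 fold change without 1 animal ran, in KO against WT, from −0.36 to 0.73 for Catsperg1, −2.03 to 0.99 for Kcnu1 and −0.35 to 0.018 for Slc9c1. In Het against WT it ran from −0.82 to 0.079 for Catsper1, −0.39 to 0.58 for Catsperg1, −1.57 to 1.58 for Kcnu1 and −0.35 to 0.079 for Slc9c1. In KO against Het it ran from −0.54 to 0.0035 for Catsper2, −0.35 to 0.11 for Catsper3, −1.47 to 0.20 for Catsperb, −0.17 to 0.43 for Catsperd, −0.38 to 0.56 for Catsperg1, −0.11 to 0.21 for Catsperg2, −2.08 to 1.03 for Kcnu1 and −0.18 to 0.14 for Slc9c1. The cause was not tested. The 30 group means moved by less than 1 standard deviation when scaled by reads counted per library.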

Other observations

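Further genes of the listed pathways, named here after their values were seen, split animals of 1 genotype in the manner of Kcnu1. Prkar1a, a regulatory subunit of protein kinase A, had 13.6, 1476 and 1228 normalized counts in WT, 13.2, 1241 and 983 in Het and 1129, 824 and 996 in KO, and its 2 low animals, WT replicate 1 and Het replicate 1, were also low for Kcnu1. Akap4, the main anchor protein of the fibrous sheath, had 45.8, 2573 and 2174 in WT, 70.9, 2209.7 and 106 in Het and 1770, 105 and 137 in KO. The low animals of Akap4 included those of Kcnu1. In KO against WT, Prkar1a and Akap4 differed by 1.71 and −1.11 on the log2 scale, each with a standard error over 1.5 (limma adjusted p = 0.704 and 0.81).

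The remaining marker lists gave these values in KO against WT. Of 4 tested spermatogonia markers 2 were higher (median log2 fold change 0.15), of 5 Sertoli cell markers 4 (0.34), of 5 Leydig cell markers 3 (0.24) and of 2 erythrocyte markers 1 (−0.14). The Sertoli cell markers were uneven, running from −1.43 for Amhr2 to 2.48 for Wt1. Their standard errors were 2.17 and 0.76, with limma adjusted p = 0.794 and 0.610. The 1 macrophage marker tested had 0.19, and 0 of the 4 epididymis markers passed the filter.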
